A study of Mus musculus with 12 samples.

Results

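The 9 genes described here encode collagens that do not form the classical striated fibrils: the 3 chains of collagen VI (Col6a1, Col6a2, Col6a3), the chain of collagen VII (Col7a1), the chains of collagen VIII (Col8a1, Col8a2), and the fibril-associated or fibril-associated-like collagens XII, XIV and XVI (Col12a1, Col14a1, Col16a1). They were taken by name from a list of this collagen group that was drawn up with earlier results of these data known, although the list itself uses no measured value. All 9 were among the 55487 genes of the table. Cells were a primary fibroblast line from the mammary fat pad of 1 healthy B6 mouse, a single line with 4 groups of 3 libraries of total RNA. One group was exposed for 24 h to doxorubicin, a drug that damages DNA, at 100 nM and collected on day 7, and its control received water and was collected on the same day. The peroxide group received 750 uM hydrogen peroxide for 2 h in 3 rounds with 48 h to recover after each, and collection on day 6 was shared by its own water control. Both control groups were passaged to hold their density, whereas the treatment text mentions no splitting of treated cells, and the labels do not tell whether replicates came from different cultures. The p-values therefore reflect library-to-library spread alone, which may be technical. The series names both treatments as inducers of senescence, and the comparisons asked how each changed these collagens, whether the effects differed, and how the untreated cultures compared.

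Collagen VI is secreted as tetramers of a heterotrimer of the α1, α2 and α3 chains, which join end to end into beaded microfilaments close to the cell surface. Collagen VIII is a short-chain collagen that forms hexagonal networks, as in Descemet's membrane and vessel walls, and collagen VII forms the anchoring fibrils below epithelia. Collagens XII and XIV sit on the surface of collagen I fibrils and influence their spacing, and collagen XVI is a related minor component of connective tissue. In fat and mammary stroma collagen VI is a major product of fibroblasts and adipocytes.

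The genes lie apart except for Col6a1 and Col6a2, which are neighbours on chromosome 10 (76708792 to 76726168 and 76595762 to 76623630, both on the minus strand, mm10) with 85.2 kb and 1 other gene model between them. Col6a3 lies on chromosome 1 (90765923 to 90843971, minus strand), Col7a1 on chromosome 9 (108953586 to 108984875, plus strand), Col8a1 on chromosome 16 (57624258 to 57754737, minus strand) and Col8a2 on chromosome 4 (126286793 to 126314330, plus strand). Col12a1 lies on chromosome 9 (79598991 to 79718831, minus strand), Col14a1 on chromosome 15 (55307750 to 55520803, plus strand) and Col16a1 on chromosome 4 (130047840 to 130099283, plus strand). In GENCODE the longest coding transcript has 4 exons in each of the collagen VIII genes and 119 in Col7a1, and transcript lengths run from 4.10 kb for Col6a1 to 11.5 kb for Col12a1. Within the group reads should be well separated: 8 of the 9 longest coding transcripts share none of their 50-base windows with another gene, and Col8a1 shares 0.0198%. Models annotated on the same strand overlap Col6a3 (Gm36970, at most 0.905 CPM) and Col7a1 (Mir711, 0 CPM in all 12 libraries). Models annotated on the opposite strand overlap Col12a1 and Col14a1. The one at Col12a1, 4930562D21Rik, stayed at or below 1.16 CPM (counts scaled so that each library sums to 1e+06), while those at Col14a1 reached up to 0.879 CPM, near the level of Col14a1 itself in some libraries, and the sources do not state whether counting used strand.

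The 250 bases before the annotated start are shown for the 2 chains of collagen VIII, of which 1 was abundant and had the largest log2(CPM + 1) change of the members and the other was barely detected, and for 2 chains of collagen VI whose estimates had opposite signs. They are RefSeq sequences on GRCm38.p6, 5′ to 3′ on the gene's strand. Capitals mark GGGCGG, the GC box bound by Sp1-type factors, on either strand.
Col8a1 (chr16:57754738-57754987, minus strand): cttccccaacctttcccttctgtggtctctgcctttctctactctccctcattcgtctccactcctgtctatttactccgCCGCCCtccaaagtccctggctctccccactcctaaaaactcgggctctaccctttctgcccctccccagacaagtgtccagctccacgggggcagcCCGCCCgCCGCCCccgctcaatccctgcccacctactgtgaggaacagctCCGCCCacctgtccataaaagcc
Col8a2 (chr4:126286544-126286793, plus strand): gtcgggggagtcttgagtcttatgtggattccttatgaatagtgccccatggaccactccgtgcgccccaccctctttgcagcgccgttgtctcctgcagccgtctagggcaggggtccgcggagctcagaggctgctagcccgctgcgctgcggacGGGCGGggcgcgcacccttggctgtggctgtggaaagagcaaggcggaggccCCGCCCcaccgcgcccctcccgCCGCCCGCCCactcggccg
Col6a2 (chr10:76623631-76623880, minus strand): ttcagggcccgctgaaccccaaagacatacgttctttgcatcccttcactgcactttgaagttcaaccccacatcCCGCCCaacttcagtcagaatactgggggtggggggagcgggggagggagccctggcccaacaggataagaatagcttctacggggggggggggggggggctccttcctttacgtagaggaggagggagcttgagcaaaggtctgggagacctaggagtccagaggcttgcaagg
Col6a3 (chr1:90843972-90844221, minus strand): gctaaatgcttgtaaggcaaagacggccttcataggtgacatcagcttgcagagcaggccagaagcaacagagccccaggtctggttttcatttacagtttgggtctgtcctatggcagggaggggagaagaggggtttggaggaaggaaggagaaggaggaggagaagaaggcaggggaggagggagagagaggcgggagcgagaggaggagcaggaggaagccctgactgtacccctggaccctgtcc
Upstream sequences were found for 7 members. GGGCGG was present in 5 of the 7 (Col6a2, Col7a1, Col8a1, Col8a2, Col16a1) and in 32.7% of 32851 promoters of the same length. Both collagen VIII promoters held 4 matches, and neighbouring matches in Col8a2 overlap. The other motifs searched on both strands were TATAAA (0 of 7, 12.4% of all promoters), CCAAT (Col7a1 and Col16a1, 33.8%), TGANTCA (Col6a1, 6.75%), CACGTG (0 of 7, 6.02%), GGAATG (0 of 7, 12.6%) and the CArG box of serum response factor (0 of 7, 1.47%). The members' windows ran from 56 to 75.6% G and C, against a median of 52.4% over all promoters. A match describes the letters only and is no evidence of binding.

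Estimated depth was 17.3 to 37.6 M reads per library. Of the 10 fibroblast markers, which include collagen I chains and Dcn, 10 were at 1 CPM or more in both treated groups and 9 in both control groups, with summed levels of 9340 to 13169 CPM with doxorubicin, 7828 to 8454 CPM in its control, 9828 to 11003 CPM with peroxide and 7607 to 9138 CPM in its control. Of the 9 epithelial markers only Krt19 reached 1 CPM in any group, and Krt8 and Krt14 were at 0 in 3 of the groups, the doxorubicin group being the exception. Summed epithelial levels were 68.8 to 80.8 CPM with doxorubicin against 122 to 184 CPM in its control, and 18.3 to 58.4 CPM with peroxide against 168 to 181 CPM in its control. Of 8 endothelial markers 2, Tek and Egfl7, were at 1 CPM or more. Pecam1 and Cdh5 averaged 0.369 and 0.00388 CPM, and Cldn5 was at 0 in every library. The endothelial sum, mostly Tek, was 36.2 to 45.7 against 17.3 to 20.2 CPM with doxorubicin and 26.2 to 32.6 against 9.05 to 12.7 CPM with peroxide. Summed leukocyte markers were 27.3 to 32.7 against 11.1 to 17.8 CPM and 23.6 to 26.5 against 16.3 to 17.4 CPM. Nearly all came from 3 of 9, Csf1r, Lyz2 and Cd68, whereas Ptprc averaged 0.0225 CPM. Summed adipocyte markers (2 to 4 of 6, nearly all Lpl) were 1392 to 1482 against 2237 to 2441 CPM and 2091 to 2194 against 977 to 1174 CPM, in opposite directions in the 2 experiments. Summed pericyte and smooth muscle markers (2 to 5 of 7) were 20.9 to 23.98 against 9.28 to 14.7 CPM and 24.6 to 30.1 against 28.7 to 31.3 CPM. The part of these markers in the collagen results was not tested, and in bulk RNA fewer cells of a type and less RNA per cell cannot be told apart. Doxorubicin replicate 1, its control replicate 3 and peroxide replicate 2 stood apart from their groups on the second principal component, so calls that change without them are given both ways. These libraries were picked from the same data, and leaving them out leaves 2 libraries in 3 of the 4 groups.

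Per kilobase of transcript, Col6a1 was the most abundant member in every group, at a group mean of 121 to 192 CPM per kb. The other collagen VI chains, at 23.3 to 45.1 CPM per kb, came next together with Col8a1, which ranged from 6.53 to 44.2 CPM per kb. Col12a1 was at 5.62 to 13.2 CPM per kb and Col16a1 at 1.30 to 1.77 CPM per kb. Col7a1, Col14a1 and Col8a2 had group means below these, the highest being 0.615 CPM per kb for Col7a1. Summed over the 9 genes, levels were 1155 to 1409 CPM with doxorubicin, 985 to 1257 CPM in its control, 1473 to 1701 CPM with peroxide and 1318 to 1412 CPM in its control. Collagen VI made up 89.4 to 91.0% of that sum, which is not scaled by length, in the doxorubicin control but 73.7 to 74.8% with doxorubicin, and these ranges do not overlap. The collagen VI levels themselves did overlap, at 880 to 1144 CPM in the doxorubicin control and 861 to 1054 CPM with doxorubicin. Col8a1, part of the sum, averaged 33.4 and 226 CPM in these groups. In the peroxide experiment the shares overlapped, at 80.2 to 82.9% with peroxide and 80.3 to 82.1% in its control.

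**Figure D1:**
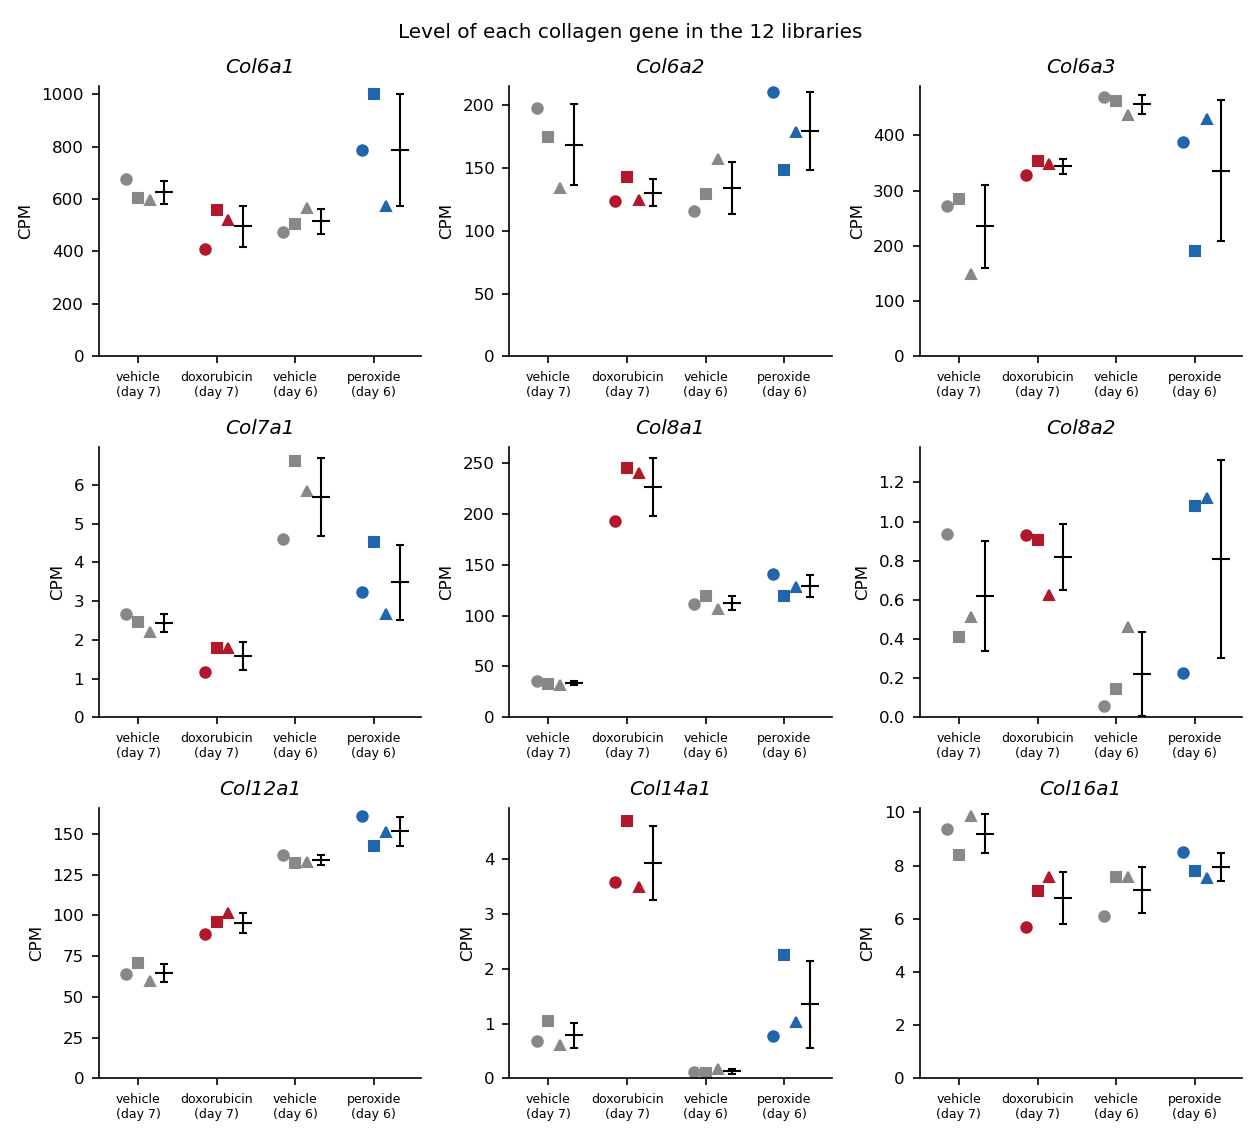
CPM of each gene in the 12 libraries, by group, each axis starting at 0; points are libraries (circle, square and triangle for replicates 1, 2 and 3), and black marks are the mean ± SD of 3. Col8a1 in doxorubicin libraries (193 to 244 CPM) lies above all others, and Col6a3 falls to 148 CPM in control replicate 3 of that experiment and to 190 CPM in peroxide replicate 2.

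The tests covered the 13280 genes that reached 1 CPM in 3 or more libraries. Col8a2 missed this limit and the other 8 members passed, Col14a1 through treated libraries, a route that favours rises. Fold changes are on the log2(CPM + 1) scale, which understates those of low genes, and a gene was called at a Benjamini-Hochberg adjusted p below 0.05 in limma. With doxorubicin 3 members rose (Col8a1, Col12a1, Col14a1) and 1 fell (Col16a1). Of all tested genes 22.1% rose and 27.8% fell, 49.9% in all, so 4 of 8 called is close to the background. With peroxide 2 rose (Col6a1, Col14a1) and 1 fell (Col7a1), where 27.3% of tested genes rose and 23.4% fell, 50.7% in all. The median log2 fold change of the 8 was 0.10 with doxorubicin and 0.19 with peroxide, beside -0.03 and -0.01 over all tested genes. The effects of the treatments differed for 5 of the 8, beside 33.6% of all tested genes. That count ranged from 2 to 6 with 1 library left out, beside 23.9 to 37.8% of all genes. It was 2 without peroxide control replicate 1, beside 23.9% of all genes, and 3 without doxorubicin replicate 3, its control replicate 1 or 3, or peroxide replicate 1. For Col8a1 and Col12a1 the doxorubicin effect was the higher, as for 13.5% of tested genes, and for Col6a1, Col6a2 and Col16a1 the lower, as for 20.1%.

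**Figure D2:**
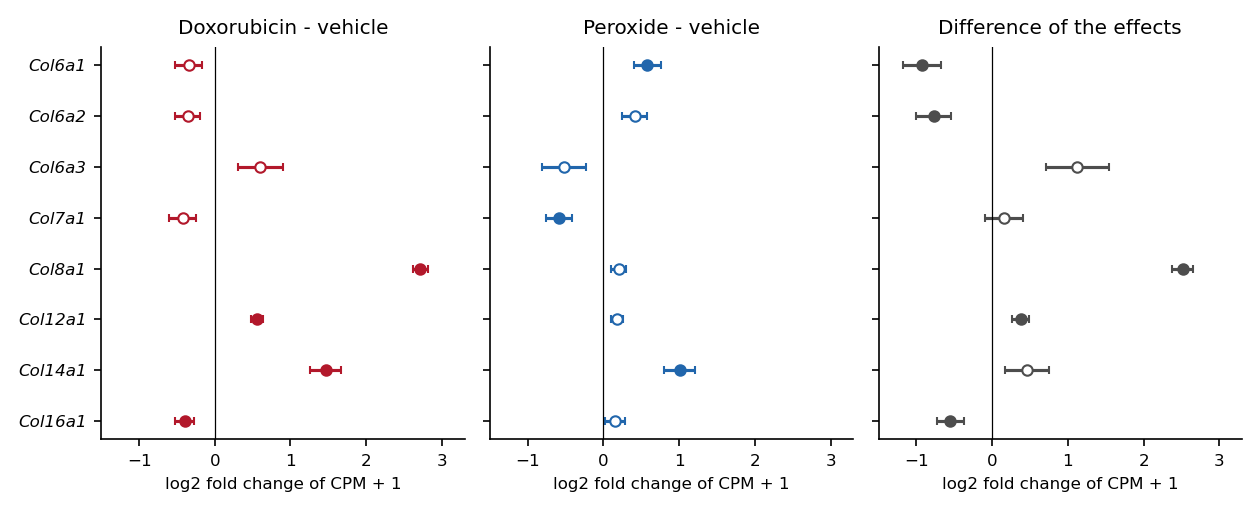
Log2 fold change of CPM + 1 for the 8 tested genes with doxorubicin, with peroxide, and the difference of these effects; bars are standard errors, and filled points have an adjusted p below 0.05. Col8a1 stands at 2.72 with doxorubicin and 0.20 with peroxide, and the estimate of each collagen VI chain changes sign between the first and second panels, where only Col6a1 with peroxide is filled.

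Col8a1, the α1 chain of collagen VIII, gave the largest change of the members on the log2(CPM + 1) scale, whereas in the ratio of mean CPM Col14a1 with peroxide, at a far lower level, changed more (10.6). Col8a1 was at 193, 244 and 240 CPM in doxorubicin replicates 1 to 3 and at 35.5, 32.6 and 32.0 CPM in control replicates 1 to 3 of that experiment. Means were 226 ± 28.5 and 33.4 ± 1.85 CPM (SD, n = 3), a ratio of 6.77, with no overlap. The log2 fold change was 2.72 ± 0.10 (SE, adjusted p = 4.13e-09), above that of 99.0% of tested genes. In the peroxide experiment Col8a1 was at 141, 119 and 128 CPM in treated libraries and at 111, 119 and 106 CPM in controls. These groups overlap, and the difference of 0.20 ± 0.10 did not pass the test (adjusted p = 0.118). It passed with upper-quartile scaling (0.27, adjusted p = 0.0262), with array weights (0.25, adjusted p = 0.0185) and without the 3 libraries that stood apart (0.26, adjusted p = 0.0132). The doxorubicin effect exceeded the peroxide effect by 2.52 ± 0.14 log2 units (SE, adjusted p = 3.31e-06).

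The order of Col8a1 levels shows that the control groups differed too. The doxorubicin group was highest, the peroxide group (129 ± 10.9 CPM) and its control (112 ± 6.66 CPM) came next and overlapped, and the doxorubicin control was lowest. Between the control groups the difference was -1.72 ± 0.10 log2 units (day 7 less day 6, adjusted p = 1.31e-06), a ratio of 3.36 in mean CPM. Doxorubicin-treated cells thus stood 1.75 times above peroxide-treated cells in mean CPM but 6.77 times above their own control. Day, vehicle culture and experiment cannot be told apart in that comparison.

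Col8a2, the partner chain of collagen VIII, was near the limit of detection. It was at 0.931, 0.904 and 0.624 CPM with doxorubicin, 0.937, 0.410 and 0.513 CPM in that control, 0.226, 1.08 and 1.12 CPM with peroxide and 0.0569, 0.143 and 0.462 CPM in the peroxide control. All neighbouring groups overlap. A floor of 3 reads corresponds to 0.0798 to 0.173 CPM, and 2 of the peroxide control libraries were at 3 reads or fewer. Summed over libraries, 64 reads with peroxide stood against 12 in its control, a ratio of 3.92 (95% exact conditional binomial interval 2.10 to 7.99, counting error only), and 76 stood against 38 with doxorubicin, a ratio of 1.31 (0.875 to 1.99). With no filter on low values neither difference passed the limma test (adjusted p = 0.114 and 0.640). Per kilobase, the Col8a1 to Col8a2 ratio was 32.1 to 67.4 in the doxorubicin control and 176 to 326 with doxorubicin. In the peroxide experiment it spread from 93.2 to 1658, since the divisor rests on as little as 1 read.

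Col12a1 and Col14a1, the fibril-associated collagens, both rose with doxorubicin. Col12a1 was at 88.8, 95.9 and 101 CPM against 63.9, 70.5 and 59.6 CPM in controls, means of 95.4 ± 6.30 and 64.6 ± 5.50 CPM (SD, n = 3) that did not overlap (log2 fold change 0.56 ± 0.08, SE, adjusted p = 0.000150). With peroxide it was at 161, 143 and 151 CPM against 137, 132 and 133 CPM. All peroxide libraries lay above all their controls, but the difference of 0.18 ± 0.08 did not pass the test (adjusted p = 0.0818). It passed without peroxide replicate 2 (0.22, adjusted p = 0.0487), without the 3 libraries that stood apart (adjusted p = 0.0175), with upper-quartile scaling (adjusted p = 0.0174) and with array weights (adjusted p = 0.0118). The effects differed by 0.38 ± 0.11 (SE, adjusted p = 0.0243), a call lost without doxorubicin replicate 3 (0.0614), its control replicate 3 (0.0622) or peroxide control replicate 1 (0.0577), and with a replicate block (0.0575). The 4 groups formed an order without overlap: peroxide, its control, doxorubicin, and the doxorubicin control. The control groups stood apart by -1.04 ± 0.08 log2 units (adjusted p = 7.52e-06), so the doxorubicin rise left Col12a1 below the untreated cells of the other experiment.

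Col14a1 was low in every group, and its changes rest on few reads. It was at 3.59, 4.71 and 3.49 CPM with doxorubicin against 0.691, 1.05 and 0.616 CPM in controls, without overlap (log2 fold change 1.46 ± 0.20, SE, adjusted p = 0.000140). With peroxide it was at 0.767, 2.26 and 1.03 CPM against 0.114, 0.0953 and 0.173 CPM, again without overlap (1.01 ± 0.20, adjusted p = 0.00172). The peroxide controls held 2, 2 and 3 reads. Among controls only doxorubicin control replicate 2 reached 1 CPM, so Col14a1 passed the filter through treated libraries, a route that favours rises. Summed reads gave ratios of 5.03 with doxorubicin (377 against 49 reads, 95% interval 3.73 to 6.92) and 11.8 with peroxide (112 against 7 reads, 5.53 to 29.96), both counting error only. The difference between the effects did not pass the test (0.46 ± 0.29, adjusted p = 0.240), and its sign turned with a pseudocount of 0.1 (-0.35) or with limma voom on estimated reads (-0.83). It passed without peroxide replicate 2 (0.72, adjusted p = 0.0253), with array weights (0.56, adjusted p = 0.0370) and without the 3 libraries that stood apart (0.70, adjusted p = 0.0482). Both treatment calls held at pseudocounts of 0.1 and 2 while the values moved, from 2.20 to 1.09 with doxorubicin and from 2.55 to 0.63 with peroxide, and voom gave 2.31 and 3.14.

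Col16a1, the fibril-associated-like chain, fell with doxorubicin by a small amount. It was at 5.68, 7.05 and 7.57 CPM against 9.37, 8.39 and 9.85 CPM in controls, without overlap (-0.40 ± 0.13, SE, adjusted p = 0.0219). That call was lost without doxorubicin replicate 1 (-0.29, adjusted p = 0.0750), its control replicate 1 (0.0589) or its control replicate 3 (0.0754), without the 3 libraries that stood apart (-0.25, adjusted p = 0.182) and with a replicate block (0.0573). With peroxide Col16a1 was at 8.52, 7.78 and 7.52 CPM against 6.08, 7.58 and 7.57 CPM, and the groups overlap (0.15 ± 0.13, adjusted p = 0.342). The effects differed by -0.55 ± 0.18 (adjusted p = 0.0365). This was lost without doxorubicin replicate 1 (0.0617) or 2 (0.0521), its control replicate 1 (0.0681) or 3 (0.0837), peroxide replicate 1 (0.0757) or its control replicate 1 (0.0871). It was also lost without the 3 libraries that stood apart (-0.41, adjusted p = 0.129), with a replicate block (0.0837), with no filter on low values (0.0764) and with median-of-ratios scaling (-0.49, adjusted p = 0.0586).

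Of the collagen VI chains only Col6a1 was called in a treatment comparison, and only with peroxide. Col6a1, the α1 chain, was at 788, 1001 and 573 CPM with peroxide and 474, 505 and 566 CPM in controls. The lowest treated library was just above the highest control, and the rise of 0.58 ± 0.18 log2 units passed the test (SE, adjusted p = 0.0181). It was lost without peroxide replicate 1 (0.56, adjusted p = 0.0501), replicate 2 (0.39, 0.0601), control replicate 1 (0.52, 0.0629) or control replicate 2 (0.57, 0.0511). With doxorubicin Col6a1 was at 409, 557 and 520 CPM, below the 674, 603 and 597 CPM of the controls without overlap, and the difference of -0.35 ± 0.18 did not pass the test (adjusted p = 0.126). It passed without peroxide replicate 3, which enters only through the shared spread (adjusted p = 0.0471), and with array weights (-0.30, adjusted p = 0.0186). The effects of the treatments on Col6a1 differed by -0.92 ± 0.25 (adjusted p = 0.0178), a call that held with each library left out in turn.

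Col6a2, the α2 chain, went the same way as Col6a1 in the estimates, with overlapping groups in both experiments. It was at 124, 143 and 124 CPM with doxorubicin against 198, 175 and 134 CPM (-0.36 ± 0.16, SE, adjusted p = 0.0906). With peroxide it was at 211, 149 and 179 CPM against 116, 129 and 157 CPM (0.41 ± 0.16, adjusted p = 0.0541). Neither passed, but the doxorubicin difference passed without control replicate 3 (-0.51, adjusted p = 0.0244), with array weights (-0.50, adjusted p = 0.00178) and without the 3 libraries that stood apart (-0.48, adjusted p = 0.0132). The peroxide difference passed without peroxide replicate 2 (0.54, adjusted p = 0.0201), its control replicate 3 (0.53, 0.0296), or doxorubicin control replicate 1 (0.0475) or 3 (0.0315), which enter through the spread alone. It also passed without the 3 libraries that stood apart (0.54, adjusted p = 0.00402), with upper-quartile scaling (0.48, adjusted p = 0.0210) and with array weights (0.57, adjusted p = 0.00375). The effects differed by -0.77 ± 0.23 (adjusted p = 0.0268). This call was lost without doxorubicin replicate 3 (0.0596), its control replicate 1 (0.0596) or 2 (0.0545), peroxide replicate 1 (0.0584), or its control replicate 1 (0.0659) or 2 (0.0586), and with no filter on low values (0.0629).

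Col6a3, the α3 chain, which carries the long amino-terminal region of the collagen VI monomer, was set apart by 2 libraries. It was at 329, 354 and 348 CPM with doxorubicin and at 272, 285 and 148 CPM in the controls, without overlap. It was at 389, 190 and 430 CPM with peroxide and at 469, 462 and 436 CPM in those controls, also without overlap but below them. Neither difference passed (0.60 ± 0.29 with doxorubicin, SE, adjusted p = 0.106, and -0.52 ± 0.29 with peroxide, adjusted p = 0.157). Without the 3 libraries that stood apart the estimates were 0.33 ± 0.07 with doxorubicin (adjusted p = 0.00192), which then passed, and -0.16 ± 0.06 with peroxide (adjusted p = 0.0521), which passed under none of the alternatives run. Those 3 include both low Col6a3 libraries, at 148 and 190 CPM, so the smaller SE follows from the choice of libraries. The doxorubicin difference also passed without peroxide replicate 2 (adjusted p = 0.0236), which enters through the spread, and with array weights (0.45, adjusted p = 0.0234). The effects of the treatments differed by 1.13 ± 0.41 in the opposite direction to Col6a1 and Col6a2, and this did not pass (adjusted p = 0.0550). It passed without doxorubicin control replicate 2 (1.29, adjusted p = 0.0472), peroxide replicate 3 (1.35, 0.0321) or the 3 libraries together (0.49, 0.00247), with median-of-ratios scaling (1.19, 0.0392), upper-quartile scaling (1.04, 0.0481) and array weights (0.74, 0.0279).

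Per kilobase, Col6a3 made up 17.4 to 20.5% of the collagen VI transcripts with doxorubicin and 7.76 to 13.2% in its control, without overlap. In the peroxide control it made up 20.1 to 24.8%, and with peroxide 6.39 to 19.3%. The Col6a1 to Col6a3 ratio was 3.06 to 3.88 with doxorubicin and 5.22 to 9.93 in its control, 2.49 to 3.2 in the peroxide control and 3.28 to 13.0 with peroxide. The highest ratios were those of peroxide replicate 2 and doxorubicin control replicate 3, which also had the highest scores on the second principal component (48.2 and 37.8). The part of that component in the ratio was not tested. Summed collagen VI levels varied less, at 861 to 1054 against 880 to 1144 CPM with doxorubicin and 1182 to 1387 against 1059 to 1160 CPM with peroxide.

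**Figure D3:**
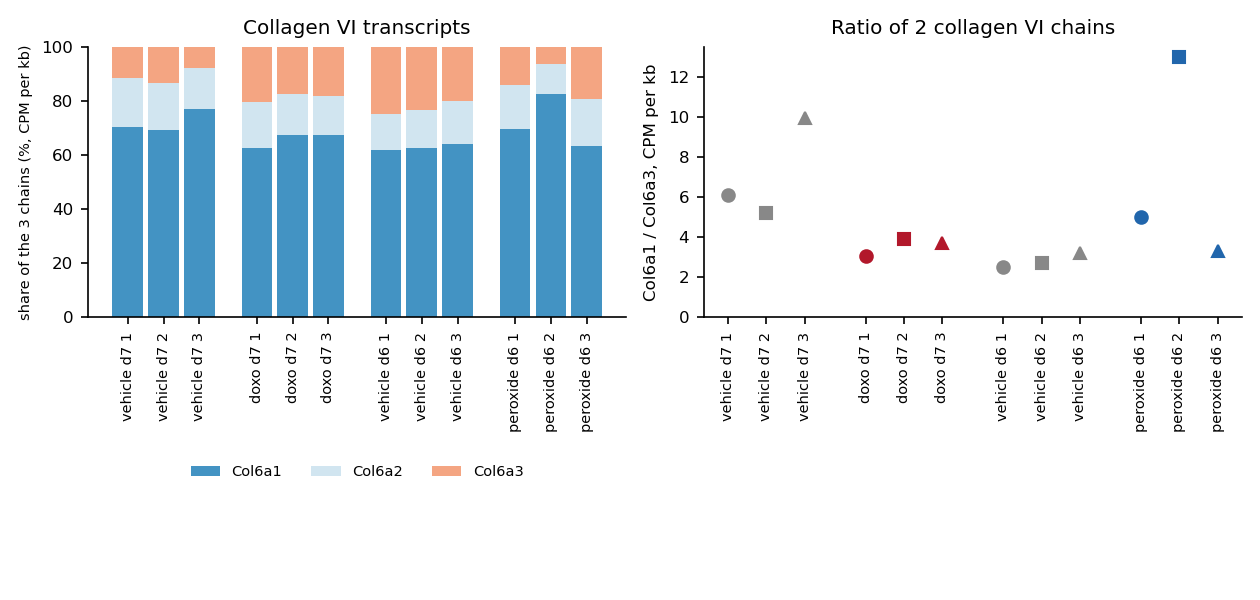
Left, share of the 3 collagen VI transcripts in each library from CPM per kb of transcript; right, the Col6a1 to Col6a3 ratio in the same unit, with symbols for replicates 1 to 3 as circle, square and triangle (vehicle d7 and vehicle d6 are the doxorubicin and peroxide controls). Ratios in doxorubicin libraries lie between 3.06 and 3.88, and those of control replicate 3 (9.93) and peroxide replicate 2 (13.0) lie far above the rest of their groups.

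Col7a1, the anchoring fibril chain, was lower in both treated groups. With peroxide it was at 3.25, 4.54 and 2.66 CPM against 4.61, 6.62 and 5.84 CPM, without overlap, and it fell by 0.59 log2 units (SE 0.18, adjusted p = 0.0166). Leaving out peroxide replicate 3 ended the call (-0.45, adjusted p = 0.0636), as did leaving out its control replicate 2 (-0.49, adjusted p = 0.0682) or using no filter on low values (adjusted p = 0.0509). With doxorubicin it was at 1.16, 1.78 and 1.79 CPM against 2.66, 2.46 and 2.21 CPM, also without overlap, but the difference did not pass (-0.43 ± 0.18, adjusted p = 0.0647). It passed with a pseudocount of 0.1 (-0.62, adjusted p = 0.0471), without peroxide replicate 2 (adjusted p = 0.0365), with each experiment fitted alone (adjusted p = 0.0447) and with array weights (-0.36, adjusted p = 0.0166). The difference between the effects was 0.16 ± 0.25 (adjusted p = 0.639).

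The last comparison set the untreated cultures of the 2 experiments side by side. In the doxorubicin control 4 members were lower than in the peroxide control (Col8a1, Col12a1, Col6a3, Col7a1) and 1 was higher (Col14a1), 5 of 8 tested, where 12.9% of all tested genes were lower and 15.1% higher, 28.0% in all. The members' median was -0.33 against -0.02 over all tested genes. Beside the values given for Col8a1 and Col12a1, the differences were -1.01 ± 0.29 for Col6a3 (SE, adjusted p = 0.0241), -0.95 ± 0.18 for Col7a1 (adjusted p = 0.00235) and 0.66 ± 0.20 for Col14a1 (adjusted p = 0.0342). Col6a3 lost its call without doxorubicin control replicate 3 (-0.71, adjusted p = 0.0903) and without peroxide control replicate 1 (0.0697), 2 (0.0683) or 3 (0.0506), and with no filter on low values (0.0600). Col14a1 lost it without any of the 3 doxorubicin controls (0.0669, 0.111 and 0.0558) or the 3 peroxide controls (0.0896, 0.0945 and 0.0629), with a pseudocount of 2 (0.0713) and with no filter (0.104). Col6a1, Col6a2 and Col16a1 did not pass (0.28, 0.32 and 0.34, adjusted p = 0.261, 0.165 and 0.0667). Col16a1 passed without doxorubicin replicate 1 (adjusted p = 0.0442) and with upper-quartile scaling (0.0471), Col6a2 without the 3 libraries that stood apart (0.48, adjusted p = 0.0149), and all 3 with array weights. With a replicate block the control comparison was of levels fitted at replicate 1, not of group means. Its estimates moved (Col8a1 -1.84, Col6a3 -1.08, Col7a1 -0.87). Col8a1 and Col12a1 were called there, and Col6a3 (0.113), Col7a1 (0.0597) and Col14a1 (0.108) were not. As the contrast is another one, these do not show calls lost by adjusting for the block. These comparisons share control samples with the treatment effects, so they are given side by side only.

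Other genes of collagen biology give the setting, to be read beside all tested genes, of which 49.9% were called with doxorubicin (median -0.03) and 50.7% with peroxide (median -0.01). Of 18 other non-fibrillar collagens only 3 passed the filter, with 1 higher and 1 lower with doxorubicin and 3 higher with peroxide. Of the 3, Col28a1 averaged 0.293 and 0.693 CPM in the doxorubicin and peroxide controls, against 6.12 and 1.91 CPM when treated. It passed the filter through treated libraries, a route that favours rises. Col28a1 rose by 2.45 log2 units with doxorubicin and by 0.80 with peroxide. Col15a1, a basement membrane zone collagen, fell by 0.88 with doxorubicin and rose by 0.74 with peroxide. Col18a1, the precursor of endostatin, rose by 0.99 with peroxide and was not called with doxorubicin (0.27). Of 11 fibrillar collagens 9 were tested, and 7 rose and 1 fell with doxorubicin (median 0.65), while 8 rose with peroxide (median 0.74). Col24a1, counted as risen with both, stayed at or below 0.103 CPM in the doxorubicin control and 0.114 CPM in the peroxide control. It too passed the filter only through treated libraries. Col5a1, which helps to start fibrils, rose by 1.16 with doxorubicin and 1.37 with peroxide, and Col11a1 by 1.22 and 0.74. Col3a1, the chain of collagen III, rose by 1.07 and 2.13. Its control means were 800 and 298 CPM, and its treated means 1690 and 1310 CPM. Of 22 receptors and binding partners 16 were tested, and 11 rose with doxorubicin and 0 fell (median 0.59), while 11 rose and 2 fell with peroxide (median 0.48). Dcn, the proteoglycan decorin, rose by 2.13 with doxorubicin and 4.87 with peroxide, and Itgb1, the β1 integrin subunit of collagen receptors, by 0.58 and 0.33. Cspg4, a membrane proteoglycan that binds collagen VI, fell by 1.90 with peroxide and was not called with doxorubicin (-0.33). Of 23 genes of collagen folding, secretion and processing 19 were tested, and 5 rose and 1 fell with doxorubicin (median 0.23), while 10 rose and 1 fell with peroxide (median 0.40). P4ha3, a prolyl hydroxylase subunit, rose by 1.96 with doxorubicin and 1.11 with peroxide. Mia2, a factor of the collagen export machinery, fell by 0.69 with doxorubicin and was not called with peroxide (0.01). Plod1, a lysyl hydroxylase, and P4ha2, a prolyl hydroxylase subunit, rose by 1.27 and 1.04 with peroxide. Neither was called with doxorubicin (-0.18 and 0.06).

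The genes whose pattern over the 12 libraries was nearest to that of Col8a1, by root-mean-square difference of mean-centred log2(CPM + 1) values, were Ccl2 (0.20), Plxdc2 (0.27), Fst (0.27) and Lrrc32 (0.28), against a median of 1.05 over 9283 genes. They encode a monocyte chemokine, a plexin-domain membrane protein, follistatin and a carrier of latent TGF-β. Their log2 fold changes with doxorubicin were 2.65, 2.27, 2.57 and 2.20, and with peroxide 0.43, 0.57, 0.10 and 0.63. Since neighbours, here and for Col14a1 below, were picked by pattern over the same libraries, similar fold changes follow from the choice. The nearest to Col14a1, the member with the largest change with peroxide, were Mgll (0.21), Hmox1 (0.21), Ube2l6 (0.26) and Parp11 (0.27), against a median of 0.876. They encode monoglyceride lipase, heme oxygenase 1, an ISG15-conjugating enzyme and a poly(ADP-ribose) polymerase family member. Their log2 fold changes were 1.32, 1.25, 1.84 and 1.57 with doxorubicin and 1.23, 1.13, 1.33 and 1.07 with peroxide. Those of Col14a1 were 1.46 and 1.01 on this scale, which understates changes of low genes, but 2.31 and 3.14 with voom. The match of Col14a1 to these more abundant genes therefore holds on the log2(CPM + 1) scale only.

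**Figure D4:**
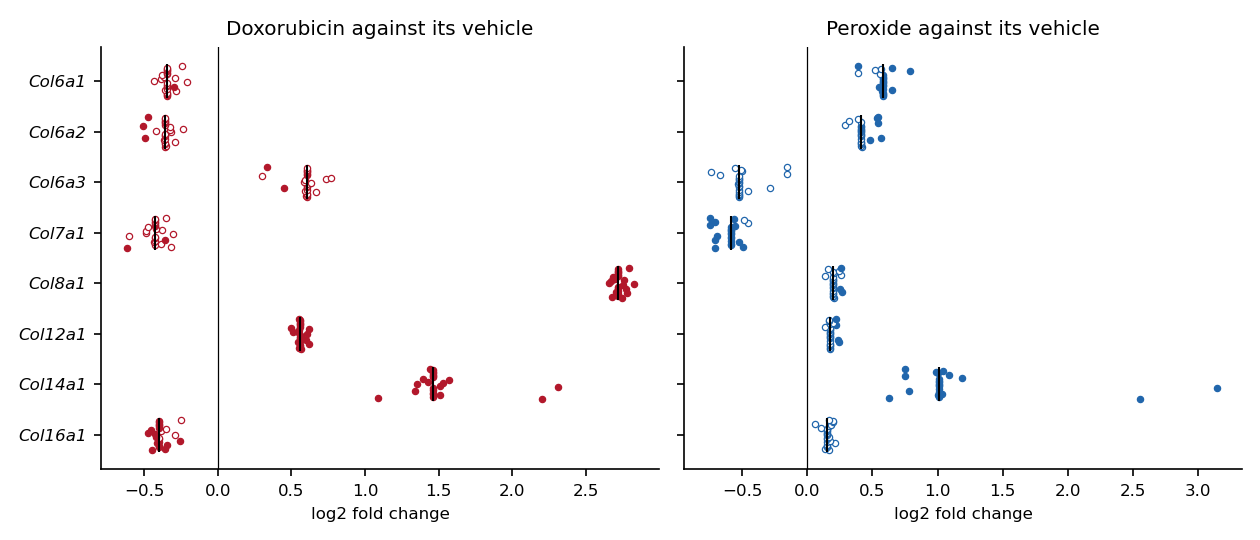
Log2 fold change of the 8 tested genes under each alternative setting (points, filled where the adjusted p is below 0.05) and as reported (vertical bar), with doxorubicin (left) and peroxide (right). Col8a1 with doxorubicin stays between 2.66 and 2.83, while Col14a1 spreads from 0.63 to 3.14 with peroxide.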

How the data were processed

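RNA was sequenced in 12 libraries of a mouse mammary fibroblast line (4 groups of 3, grouped by sample title). The authors deposited CPM per gene. bcl2fastq, DRAGEN and mm10 are named, without versions, per the submitters' processing notes. How reads were counted, and with which annotation, is not given in the sources used here. Of 55774 lines, 287 repeated an identifier with identical values and were dropped, leaving 55487 genes, and 0 value columns were unmapped. Of the identifiers, 99.4% were in GENCODE M21 (GRCm38/mm10), used for positions, lengths and shared windows.

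Depth (17.3 to 37.6 M reads) was estimated from the commonest value above 0, taken as 1 read. Among values of at most 20 reads, 74.6 to 79.8% came out whole (tolerance 0.001 read), so whole reads were not recovered and no count model served as the main test. Estimated reads were used only for voom as an alternative and for ratios of summed reads of Col14a1 and Col8a2. Reads quoted are CPM times this depth, intervals and the floor of 3 reads cover counting error only, and deeper libraries have lower floors.

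Genes reaching 1 CPM in 3 or more libraries were tested on log2(CPM + 1) with limma 3.58.1 (R 4.3.3), with a mean-variance trend, 4 group means and 8 residual degrees of freedom. Tests were two-sided, adjusted by Benjamini-Hochberg over 13280 genes at 0.05. The code was tested on simulated data. Replicate numbers did not pair the samples (correlation of deviations above 0.1 in 2 of 6 same-numbered pairs), so no block was used. Levels between genes use the longest coding transcript. Tables and figures used Python 3.11.15, numpy 2.4.6, pandas 2.3.3, scipy 1.17.1 and matplotlib 3.10.9.

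The members and gene lists were chosen with earlier results of these data known. Named genes are all members, the 2 genes with the smallest adjusted p of each list in each treatment comparison, and the 4 nearest patterns to the member with the largest change in each, at a mean of at least 5 CPM and without predicted models. Alternatives covered pseudocounts, filters, scalings, the trend, array weights, separate fits, a replicate block, voom and left-out libraries. Upstream sequences came from RefSeq (GRCm38.p6). Protein sequences were not used here.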

Additional observations from a re-analysis of the deposited data

Results flagged for a closer look

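The doxorubicin and peroxide effects differed by a test of the difference itself for 5 members (limma, adjusted p below 0.05, 33.6% of all tested genes). As doxorubicin effect less peroxide effect, the differences were 2.52 log2 units for Col8a1, 0.38 for Col12a1, -0.92 for Col6a1, -0.77 for Col6a2 and -0.55 for Col16a1. The Col8a1 effects were 2.72 and 0.20, those of Col12a1 0.56 and 0.18, those of Col6a1 -0.35 and 0.58, those of Col6a2 -0.36 and 0.41, and those of Col16a1 -0.40 and 0.15. For Col6a1, Col6a2 and Col16a1 the estimates thus had opposite signs in the 2 experiments, and for Col8a1 and Col12a1 the same sign. Of these single effects, only Col8a1, Col12a1 and Col16a1 with doxorubicin and Col6a1 with peroxide were called. Of 23 alternatives, the call of a difference was lost in 10 for Col16a1, 7 for Col6a2 and 4 for Col12a1, and in 0 for Col8a1 and Col6a1. The experiments also differed in day and in the level of their controls, with Col8a1 at 33.4 CPM in the doxorubicin control and 112 CPM in the peroxide control, and these cannot be told apart from the treatments. No group of 3 was tested for an outlying library.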

How the results depend on the processing

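Over 743 alternative values of the 32 member results, 651 kept their direction and side of the threshold, 49 lost a call, 41 gained a call and 2 turned in sign; over 1004 for other named genes, 993 kept both. The sign turned for the Col14a1 difference between effects with a pseudocount of 0.1 (-0.35) and with voom (-0.83). It also turned with array weights for P4ha2 with doxorubicin (-0.018) and Mia2 with peroxide (-0.030), neither of which was called. With libraries left out in turn, Mia2 with peroxide ran from -0.070 to 0.086 and Fst with peroxide from -0.018 to 0.17. Members called numbered 4 with doxorubicin and 3 to 6 with 1 library left out, 3 with peroxide and 1 to 4, 5 for the difference between effects and 2 to 6, and 5 between controls and 3 to 6. With 1 library left out, 41.7 to 54.5% of all genes were called with doxorubicin and 42.9 to 52.5% with peroxide. The shares were 23.9 to 37.8% for the difference and 19.3 to 33.9% between controls. Array weights, whose fit stopped before its tolerance was reached, called 8 members with doxorubicin, 6 with peroxide and 8 between controls, beside 66.6, 57.3 and 42.7% of all genes. Upper-quartile scaling and leaving out the 3 libraries that stood apart each called 6 with peroxide, beside 49.2 and 54.3% of all genes. The filter of 5 CPM, which tests 6 members, called 1 with peroxide and 3 between controls, beside 54.8 and 32.9%. No filter called 3 for the difference and 3 between controls, beside 10.4 and 9.47%. Replicate numbers were shared between groups, so a replicate block was fitted: it called 3 members with doxorubicin, 3 with peroxide, 3 for the difference and 2 between controls, beside 44.9, 45.9, 24.6 and 10.3% of all genes, and 2 of 12 libraries correlated best with their own number. Between controls this block compared levels fitted at replicate 1, not group means, so that count is of another contrast. Those control values are among the 743, and their lost calls among the 49. Other non-fibrillar collagens called were 2 with doxorubicin (4 with no filter, 0 of 1 tested at 5 CPM) and 3 with peroxide (6 and 1). Folding genes called with doxorubicin were 6 of 19, and 12 with array weights, beside 49.9 and 66.6% of all genes. Of all genes called for the difference between effects 40.3% were higher, and 51.1% with median-of-ratios scaling. The cause of these changes was not tested beyond the number of genes and samples. Depth limits Col8a2 and Col14a1, which held 1 to 8 reads per peroxide control library.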
